A study of Arabidopsis thaliana with 27 samples.

Results

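The comparison described here is the change in transcript levels of the catalase-deficient Arabidopsis line cat2-2 (Salk line N576998) over the 8 h after a move from high CO2 to ambient CO2. It rests on 6 of the 27 arrays of the series, chosen by their titles: 3 arrays of cat2-2 rosettes at 8 h after the move and 3 of cat2-2 rosettes at 0 h. The remaining arrays hold cat2-2 kept at high CO2 for the same 8 h, and the wild type Col-0 (WT) and GO5 plants, which express glycolate oxidase in the chloroplasts, under the same 3 conditions. All plants of all groups grew in soil at 3000 ppm CO2, under 16 h of light a day (75 µmol quanta m-2 s-1) with day and night temperatures of 22 and 18 °C, and were 3 weeks old at the move. The 0 h plants were harvested at the start, the ambient plants after 8 h at 380 ppm, and the high CO2 plants after 8 h at 3000 ppm. Each array holds RNA from 2 whole rosettes pooled, and the labels call the 3 samples of a group biological replicates. The mutant is represented by a single insertion line. In whole rosettes, fewer cells of a type and less RNA per cell cannot be told apart. The time of day of the 0 h harvest is not given in the sources used here.

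Photorespiration begins when the carbon-fixing enzyme Rubisco takes up oxygen in place of CO2. The glycolate formed is oxidised in peroxisomes, which releases hydrogen peroxide, and catalase, of which the CAT2 gene encodes the main leaf form, breaks that peroxide down. High CO2 keeps the flow through this pathway low, so that plants short of catalase grow much like the wild type there, and a return to ambient CO2 raises peroxide in them. The probe sets of the catalase and glycolate oxidase genes are not paired with a gene here and are not analysed here. The genotype of each array could therefore not be checked through the mutated gene.

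Values are log2 signals, 1 per probe set and array, and a difference of 1 is a doubling of signal. A difference was called at a limma adjusted p under 0.05 over all 22746 probe sets tested. Signals of different probe sets depend on their probes, so levels are compared only within a probe set. Correlations between arrays of a group ran from 0.983 to 0.993 at 0 h and from 0.980 to 0.994 at 8 h ambient, over probe sets. The mesophyll marker RCA, Rubisco activase, read 13.26, 13.32 and 13.38 at 0 h, near the top of the measured range of 1.61 to 13.59. The GAPDH control's 3' signal exceeded its 5' signal, a measure that grows with RNA breakdown, by 1.61 ± 0.13 (SD, n = 3) at 0 h and 1.60 ± 0.11 (n = 3) at 8 h ambient (exact two-sided permutation test, p = 0.9, with 0.1 the smallest possible). For the actin control it was 4.04 ± 0.07 at 0 h and 4.04 ± 0.42 at 8 h ambient (SD, n = 3). Its 3 ambient arrays were uneven, at 3.88, 4.52 and 3.72. How far that spread bears on the calls was not tested. Replicate 3 stood farthest from its group's median on 46.8% of the called probe sets at 0 h and on 56.1% at 8 h ambient, more often than either other replicate. Without replicate 3 of both groups, a choice made after seeing the data, 4807 probe sets were called between these groups.

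Over these 8 h 5225 probe sets changed in cat2-2, 23.0% of those tested. Of these 2256 rose (9.92%) and 2969 fell (13.1%). The rises were the larger ones. At least a 2-fold change was reached by 1080 risen probe sets (4.75%) and 820 fallen ones (3.61%), at least 8-fold by 128 and 55, and at least 32-fold by 20 and 2. The median difference over all probe sets was -0.03. The 1080 probe sets that rose at least 2-fold went from a median level of 5.57 at 0 h to 7.53, and the 820 that fell went from 7.56 to 5.81. A starting level below 3, near background, was held by 47 of the risen ones, and 26 of the fallen ones ended below it, so that their fold changes are limited by that floor.

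**Figure D1:**
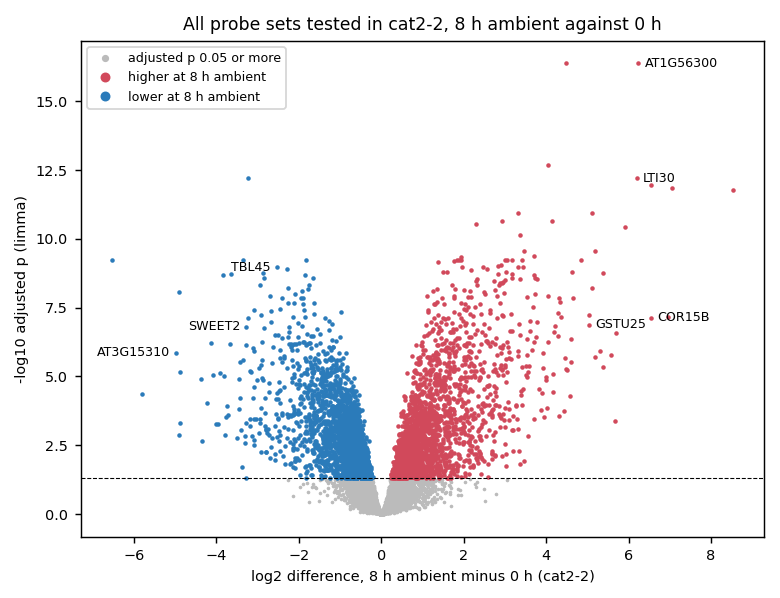
Each point is 1 of the 22746 probe sets, with the log2 difference of cat2-2 between 8 h ambient and 0 h on the horizontal axis and -log10 of the limma adjusted p on the vertical axis. The dashed line marks an adjusted p of 0.05, above which 2256 points lie to the right and 2969 to the left, and the right arm reaches farther (up to 8.54) than the left (down to -6.53).

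To show which of these changes differ from 8 h at unchanged CO2, 2 other contrasts stand beside many of the values. A value given without them is a change since 0 h only. The level at 8 h ambient was set against cat2-2 at 8 h high CO2, which is also the difference between the changes since 0 h at the 2 CO2 levels. This called 2563 probe sets (11.3%), 1174 higher (5.16%) and 1389 lower (6.11%) at ambient CO2. That count fell to 1311 and 1231 when replicate 1 or 2 of the ambient group was left out, and to 1538 and 1533 without replicate 1 or 3 of the high CO2 group. With each array centred on its median, 1233 were higher and 973 lower, so the balance of directions in this contrast turned with the scaling. The change at high CO2 over the same time, which uses the same 0 h arrays, called 2852 probe sets (12.5%), with 1506 higher (6.62%) and 1346 lower (5.92%), and with median centring 1282 higher and 1521 lower.

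The probe set that rose most, 247717_at, has no paired gene here. Its 3 arrays read 3.87, 3.11 and 2.97 at 0 h and 12.21, 11.56 and 11.79 at 8 h ambient, a rise of 8.54 ± 0.40 (log2 ± SE), or 372-fold (limma adjusted p = 1.7e-12). At high CO2 the same 8 h took it to 4.21, 5.22 and 5.18. All ambient arrays lay far above every array of both other cat2-2 groups. The probe set 247718_at, also without a paired gene, rose by 7.04 ± 0.32 and stood 6.69 ± 0.32 above its level at high CO2.

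Among probe sets paired with 1 gene, the 12 largest rises fell into genes that rose at both CO2 levels and genes that were high at ambient CO2 alone among the cat2-2 groups. The first kind includes COR15B, which encodes a protein of the chloroplast stroma that protects membranes in the cold. It read 5.13, 4.52 and 4.84 at 0 h and 11.69, 11.48 and 10.95 at 8 h ambient, a 93.5-fold rise (6.55 ± 0.61, adjusted p = 7.5e-08). The 0 h and ambient arrays were far apart, while the high CO2 arrays, at 11.58, 10.67 and 8.78, overlapped the ambient ones. Its direct neighbour in the genome, COR15A, which encodes a closely similar protein, went from 6.67, 6.47 and 6.12 to 11.82, 11.87 and 11.49 (5.31 ± 0.61) and read 11.29, 9.97 and 8.39 at high CO2. How far probes of either gene also bind the other's transcript was not tested.

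AT1G56300, of the family of J-domain chaperones, had the most even rise, from 3.71, 3.21 and 3.06 to 9.40, 9.56 and 9.72 (6.23 ± 0.16, 75.2-fold, adjusted p = 4.2e-17). At high CO2 it read 9.58, 9.40 and 9.38, and ambient minus high CO2 was 0.11 ± 0.16. The ambient and high CO2 arrays overlapped and both stood clear of 0 h. AT3G62550, of the universal stress protein family, rose by 5.11 ± 0.26 at ambient and by 5.10 ± 0.26 at high CO2. AT5G62360, of the family of pectin methylesterase inhibitors, rose by 5.18 ± 0.32 and 5.43 ± 0.32, AT4G16146 by 5.90 ± 0.33 and 5.49 ± 0.33, and AT1G07050, a CCT-domain protein, by 5.37 ± 0.68 and 5.09 ± 0.68. In none of these 5 genes did ambient minus high CO2 pass the test (adjusted p from 0.5 to 0.99), which does not show that the levels are equal.

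COR27, a cold- and light-regulated repressor of clock genes, rose from 3.09, 2.96 and 2.80 to 9.31, 9.29 and 7.26 at ambient (5.67 ± 1.06, adjusted p = 0.0004) and read 8.50, 8.66 and 4.69 at high CO2. Replicate 3 was the lowest array in all 3 groups. The evening clock gene GI (GIGANTEA) went from 4.74, 4.53 and 5.59 to 8.35, 8.06 and 8.41 at ambient (3.32 ± 0.38) and to 8.63, 8.68 and 8.14 at high CO2. RVE6 (AT5G52660), a relative of the morning clock factors, differed by -0.02 ± 0.16 between ambient and 0 h. No other gene of the 16 morning and 14 evening clock genes listed was measured under a single-gene probe set.

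The second kind of rise is led by AT5G47330, of the alpha/beta-hydrolase superfamily. It read 3.91, 3.71 and 3.72 at 0 h, 4.25, 4.55 and 4.71 at high CO2 and 10.65, 10.23 and 10.09 at ambient. The ambient arrays lay far above every other cat2-2 array, with a change since 0 h of 6.55 ± 0.29 and a difference to high CO2 of 5.82 ± 0.29 (adjusted p = 2.4e-11). The AP2/ERF transcription factor gene AT4G28140 went from 3.29, 2.91 and 3.16 to 8.87, 9.05 and 7.61 and read 3.27, 3.44 and 3.48 at high CO2. That is a 41.9-fold rise over 0 h (5.39 ± 0.39) and a 34.6-fold difference to high CO2 (5.11 ± 0.39). AT1G30250, without a role stated here, rose by 5.11 ± 0.40 and stood 4.28 ± 0.40 above high CO2. LTI30, a dehydrin of cold and drought responses, lay between both kinds, with 3.82, 3.84 and 3.47 at 0 h, 6.98, 6.15 and 5.83 at high CO2 and 9.96, 10.03 and 9.72 at ambient. No 2 of its groups overlapped, and both ambient minus high CO2 (3.59 ± 0.27, adjusted p = 1.9e-08) and high CO2 minus 0 h (2.61 ± 0.27) passed the test.

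**Figure D2:**
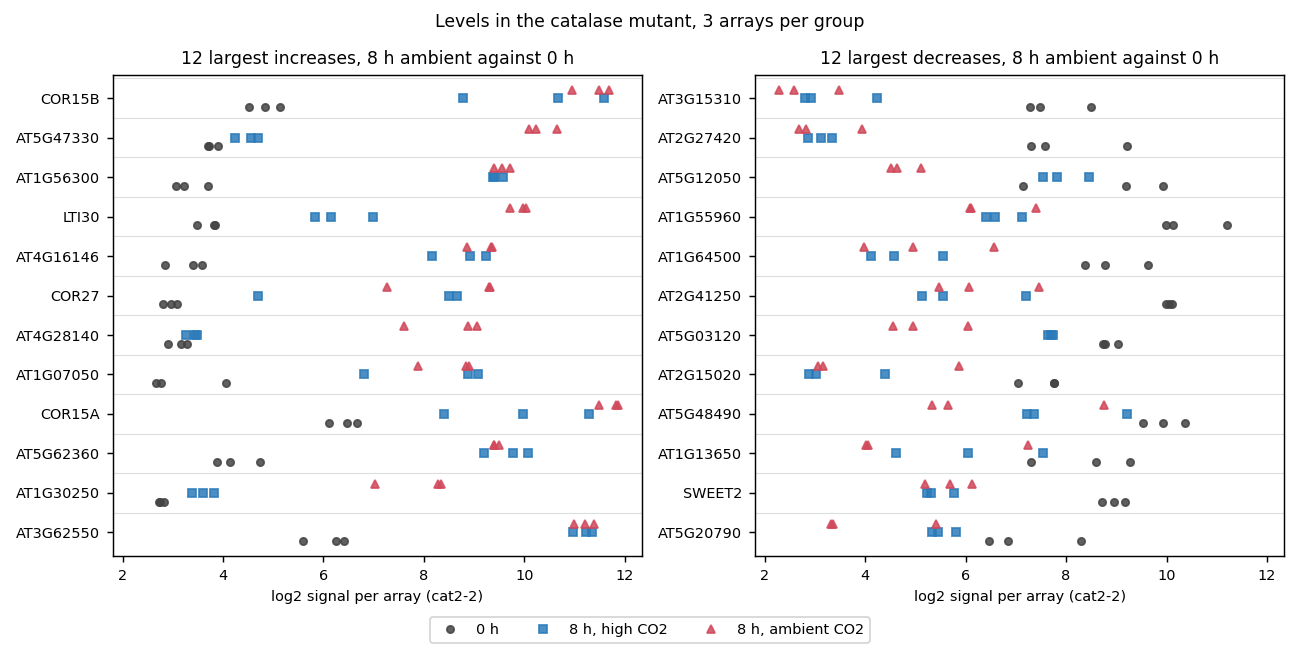
The log2 signal of each cat2-2 array is plotted for the 12 genes with the largest rises (left) and the 12 with the largest falls (right) between 0 h (circles) and 8 h ambient (triangles), with 8 h high CO2 as squares. In AT5G47330, AT4G28140 and AT1G30250 the squares lie near the circles, in AT1G56300 and AT3G62550 on the triangles, and on the right the squares lie near the triangles for most genes but near the circles for AT5G12050.

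The falls were led by 2 probe sets with no paired gene. The first, 261569_at, went from 10.41, 10.52 and 11.46 to 4.35, 4.03 and 4.42, a fall of 92.6-fold (-6.53 ± 0.43, adjusted p = 6.1e-10), and the other, 258497_at, changed by -5.81 ± 0.88. At high CO2 261569_at read 3.66, 3.64 and 4.44, and its ambient and high CO2 arrays overlapped.

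Of named genes AT3G15310 fell most, from 7.48, 7.27 and 8.49 to 2.28, 2.58 and 3.47 (-4.97 ± 0.57, 31.3-fold, adjusted p = 1.4e-06). AT2G27420, of the papain-like cysteine protease family, went from 7.29, 7.58 and 9.22 to 2.82, 2.68 and 3.93 (-4.89 ± 0.64) and to 3.12, 2.85 and 3.34 at high CO2. The ambient and high CO2 arrays of both genes overlapped, and all were below 0 h. Both ended near that floor, AT3G15310 with a mean of 2.78, so the sizes and order of their falls are limited by it. The vacuolar sugar carrier gene SWEET2 fell from 8.71, 8.95 and 9.17 to 5.19, 5.68 and 6.13 (-3.27 ± 0.32) and at high CO2 by 3.51 on the log2 scale. AT1G55960, AT1G64500 of the glutaredoxin family, AT2G41250 and AT2G15020 changed by -3.91 to -3.50 at ambient and by -4.18 to -3.73 at high CO2.

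Among the large falls AT5G12050 and AT5G03120 stood lower at ambient than at high CO2. AT5G12050 read 9.20, 9.94 and 7.15 at 0 h, 4.51, 4.63 and 5.11 at ambient and 7.81, 7.55 and 8.45 at high CO2. The ambient arrays lay below all others, with -4.01 ± 0.77 against 0 h (adjusted p = 0.00053) and -3.18 ± 0.77 against high CO2 (adjusted p = 0.0092). AT5G03120 changed by -3.66 ± 0.40 since 0 h and stood at -2.50 ± 0.40 against high CO2. AT5G20790 fell by 3.18 on the log2 scale since 0 h, while its difference to high CO2, -1.50 ± 0.59, did not pass the test (adjusted p = 0.11).

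For 2 of these 12 falls the call was lost in several of the omissions of 1 array. AT5G48490, a relative of the lipid transfer protein DIR1, read 5.32, 5.65 and 8.75 at ambient against 9.92, 10.36 and 9.54 at 0 h (-3.36 ± 1.02, adjusted p = 0.019). AT1G13650 read 4.06, 4.02 and 7.23 against 8.60, 9.27 and 7.30 (-3.29 ± 1.18, adjusted p = 0.048). In both the third ambient array lay near the 0 h arrays. The adjusted p of AT5G48490 was 0.111, 0.0902 and 0.068 without ambient replicate 1, ambient replicate 2 or 0 h replicate 2. That of AT1G13650 was 0.184, 0.18, 0.104 and 0.163 without ambient replicate 1, ambient replicate 2, 0 h replicate 1 or 0 h replicate 2.

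The heat shock list, chaperones that hold or refold damaged proteins, had 10 measured members, of which 4 rose and 1 fell (all probe sets, 9.92% and 13.1%). Its median difference of 0.88 moved with single arrays, to 0.35 without ambient replicate 2, 0.52 without 0 h replicate 2 and 1.47 without 0 h replicate 3, and was 1.86 without replicate 3 of both groups. The class I small heat shock protein gene AT2G29500 read 3.92, 3.15 and 4.57 at 0 h, 4.04, 3.90 and 3.75 at high CO2 and 7.22, 8.89 and 7.49 at ambient. The ambient arrays stood apart from all others (3.99 ± 0.54, 15.9-fold, adjusted p = 1e-05). AT1G71000, a J-domain protein, went from 3.19, 3.22 and 3.29 to 7.13, 8.20 and 4.54 (3.39 ± 0.50), with replicate 3 nearest the 0 h level. The class I gene AT1G53540 rose by 2.77 ± 0.43 from 2.91, 2.89 and 2.93 to 4.05, 7.22 and 5.79, and AT5G51440, a mitochondrial small heat shock protein gene, by 2.76 ± 0.73, a call lost without ambient replicate 2 (adjusted p = 0.0536). HSA32, which extends acquired heat tolerance, fell by 0.90 on the log2 scale. At high CO2 none of the 10 rose and 1, HSA32, fell (all probe sets, 6.62% and 5.92%). Against high CO2 6 of the 10 were higher at ambient (all probe sets, 5.16%). These were Hop3 (1.87 ± 0.54) and Fes1A (1.92 ± 0.58), both co-chaperones, beside the 4 that rose since 0 h. For Hop3 and Fes1A the 0 h arrays were uneven, with replicate 3 at 5.90 and 8.06 against 4.22 and 4.02, and 6.37 and 6.14, in the other 2.

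The detoxification list, enzymes that conjugate or reduce reactive molecules, had 12 measured members. Of these 7 rose and none fell at ambient (all probe sets, 9.92% and 13.1%). The median was 1.06 (5 risen and 0.66 without ambient replicate 2). With dim probe sets left out, 6 members remained, of which 2 rose and 0 fell, with a median of 0.48. The tau-class glutathione transferase gene GSTU25 read 2.45, 2.55 and 2.40 at 0 h, 2.38, 3.42 and 2.21 at high CO2 and 7.31, 8.81 and 6.39 at ambient. It went from background to a clear signal, 32.9-fold (5.04 ± 0.49, adjusted p = 1.3e-07). AT5G16980 and its relative AER, the alkenal reductase that acts on products of lipid peroxidation, rose by 2.63 ± 0.24 and 1.74 ± 0.22. The glucosyltransferases UGT73B1 and UGT73B5 rose by 2.11 ± 0.18 and 1.19 ± 0.35, and GSTU22 by 1.37 ± 0.25. UGT73B5 was not called without ambient replicate 2 or 0 h replicate 3 (adjusted p up to 0.149). At high CO2 1 of the 12 rose and 1 fell (all probe sets, 6.62% and 5.92%), and UGT73B1 rose there by 1.05 ± 0.18. Ambient minus high CO2 was called in 7 of the 12, all higher at ambient (all probe sets, 5.16%).

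The list of oxidative stress markers, genes known to respond to several reactive oxygen species, had 12 measured members. Of these 5 rose and none fell (all probe sets, 9.92% and 13.1%). The median was 1.23 (3 risen and 0.72 without ambient replicate 2). With dim probe sets left out, 7 members remained, of which 4 rose and 0 fell, with a median of 1.86. The bHLH gene AT1G10585 went from 3.17, 3.30 and 3.28 to 6.11, 7.53 and 5.41 (3.10 ± 0.53, adjusted p = 0.00016) and read 2.62, 2.91 and 2.89 at high CO2. All its ambient arrays lay above the others. AT2G21640, known as a marker of oxidative stress on mitochondria, went from 5.52, 5.47 and 5.53 to 7.17, 8.08 and 7.22 (1.99 ± 0.40). AT4G01870, AT1G05340 and AT2G41730 rose by 2.76 ± 0.57, 2.40 ± 0.62 and 1.86 ± 0.48, the latter 2 not called without ambient replicate 2 (adjusted p = 0.0689 and 0.0599). None of the 12 was called at high CO2 (all probe sets, 12.5%), and 7 were higher at ambient than at high CO2 (all probe sets, 5.16%).

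Of the enzymes that remove peroxide or keep ascorbate and glutathione reduced, 10 were measured, of which 1 rose and 1 fell, beside 9.92% and 13.1% of all probe sets, with a median of -0.19. Against high CO2 3 of the 10 were higher at ambient (all probe sets, 5.16%) and none lower, with a median of 0.13. ATMDAR2, a monodehydroascorbate reductase that regenerates ascorbate, read 8.92, 8.58 and 8.68 at 0 h and 9.99, 10.29 and 9.50 at ambient (1.20 ± 0.20, adjusted p = 0.00012). GR, the organellar glutathione reductase, fell by 0.58 on the log2 scale, a call lost when replicate 1 or 2 of either group was left out (adjusted p up to 0.125). The cytosolic glutathione reductase GR1 read 9.79, 9.72 and 9.96 at 0 h, 9.12, 9.09 and 9.27 at ambient and 7.81, 7.82 and 8.36 at high CO2. Its difference of -0.67 ± 0.24 to 0 h did not pass the test (adjusted p = 0.051), and it was higher at ambient than at high CO2 (1.16 ± 0.24, adjusted p = 0.003). The stromal ascorbate peroxidase SAPX, at 0.15 ± 0.14 against 0 h, was 0.64 ± 0.14 higher at ambient than at high CO2. The peroxiredoxins AT3G11630, AT3G52960 and PRXIIF differed from 0 h by -0.17, -0.25 and 0.07, none past the threshold.

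Genes of photorespiration fell. Of 8 measured members 6 fell and none rose (all probe sets, 13.1% and 9.92%), with a median of -0.51 beside -0.03 over all probe sets. HPR, the peroxisomal hydroxypyruvate reductase, read 12.32, 12.35 and 12.36 at 0 h, 11.63, 11.34 and 11.86 at ambient and 11.77, 11.70 and 11.70 at high CO2. All 8 h arrays were below all 0 h arrays (-0.73 ± 0.18, adjusted p = 0.0041), and the 2 groups at 8 h overlapped. The glycine decarboxylase subunit genes AT1G11860 (T-protein), AT1G32470 and AT2G35120 (H-proteins) changed by -0.63 ± 0.15, -0.51 ± 0.12 and -0.44 ± 0.09. The plastid glycolate and glycerate carrier gene, listed as LrgB, changed by -0.51 ± 0.14 (adjusted p = 0.0756 without ambient replicate 2), and the glycerate kinase gene AT1G80380 by -0.64 ± 0.10. At high CO2 2 of the 8 fell (all probe sets, 5.92%). AT1G80380 alone differed between ambient and high CO2 (-0.32 ± 0.10, adjusted p = 0.038). The cytosolic reductase gene AT1G79870 and the carrier gene AT4G22840 were not called, at 0.25 ± 0.14 and -0.01 ± 0.19.

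All 3 measured genes of the Calvin-Benson cycle fell at ambient (all probe sets, 13.1%), with a median of -0.57. SBPASE, sedoheptulose bisphosphatase, went from 11.71, 11.99 and 11.99 to 10.99, 10.79 and 11.25 (-0.89 ± 0.17) and PRK, phosphoribulokinase, changed by -0.57 ± 0.15 (adjusted p = 0.0534 without ambient replicate 2). RCA changed by -0.52 ± 0.13 to 12.69, 12.63 and 13.10. At high CO2 SBPASE alone of the 3 fell (-0.82 ± 0.17), and none of the 3 was called between ambient and high CO2 (median -0.14). Of the light-harvesting antenna genes LHCB4.2 fell at ambient, from 12.35, 12.51 and 11.86 to 10.90, 10.78 and 12.04 (adjusted p = 0.039), with replicate 3 inside the 0 h range. It was not called without replicate 1 or 2 of either group (adjusted p up to 0.187). LHCB4.1 and LHCB4.3 were at -0.08 ± 0.12 and -0.97 ± 0.37 against 0 h, not called. LHCB4.3 changed by -1.94 ± 0.37 at high CO2, and none of these 3 antenna genes was called between ambient and high CO2. Of 69 genes encoded in the plastid genome 15 fell and none rose (all probe sets, 13.1% fallen), with a median of -0.25. That count was 7 without ambient replicate 2 or without 0 h replicate 2, and 8 when only the 6 arrays compared were fitted. Among them rbcL, the large subunit of Rubisco, read 10.93, 11.00 and 11.12 at 0 h and 10.42, 10.22 and 10.50 at ambient (-0.64 ± 0.13). None of the 69 was called between ambient and high CO2 (all probe sets, 11.3%), and 4 fell at high CO2 (all probe sets, 5.92%).

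The flavonoid and anthocyanin list holds genes of a pathway that makes leaf pigments, and the light-signalling factor HYH. Its median difference was larger between the CO2 levels than over time, though not in AT5MAT (0.69 ± 0.15 and 0.78 ± 0.15). Of 7 measured members 3 rose and 1, HYH, fell since 0 h (all probe sets, 9.92% and 13.1%), with a median of 0.78. With dim probe sets left out, 6 members remained, of which 2 rose and 1 fell, with a median of 0.31. Against high CO2 6 were higher at ambient (all probe sets, 5.16%), with a median of 1.78. At high CO2 3 fell and none rose (all probe sets, 5.92% and 6.62%). DFR, dihydroflavonol reductase, read 4.78, 5.51 and 4.51 at 0 h, 3.22, 3.02 and 4.06 at high CO2 and 5.83, 5.86 and 5.58 at ambient. The ambient arrays were the highest, and the difference to high CO2 was 2.33 ± 0.35 (adjusted p = 0.00014) while that to 0 h, 0.82 ± 0.35, was not called. UF3GT, an anthocyanin glycosyltransferase, rose from 4.78, 5.08 and 4.78 to 6.44, 6.08 and 6.66 (1.51 ± 0.27), AT4G14090, an anthocyanin 5-O-glucosyltransferase, by 1.05 ± 0.35, and the malonyltransferase gene AT5MAT by 0.78 ± 0.15. The call of AT4G14090 was lost without replicate 1 or 2 of either group (adjusted p up to 0.138). HYH, a light-signalling bZIP factor related to HY5, read 6.95, 6.94 and 8.49 at 0 h, 5.00, 5.97 and 5.14 at ambient and 2.95, 3.17 and 2.99 at high CO2. The 3 groups did not overlap, with -2.09 ± 0.47 at ambient and -4.42 ± 0.47 at high CO2, and the fall at ambient was not called without replicate 3 of both groups (-1.46, adjusted p = 0.054).

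All 4 measured members of the abscisic acid, cold and drought list rose at ambient (all probe sets, 9.92%), with a median of 5.75. All 4 also rose at high CO2 (all probe sets, 6.62%), with a median of 3.04. Besides COR15A, COR15B and LTI30 these include the dehydrin gene COR47, which went from 8.83, 9.21 and 9.39 to 11.83, 11.91 and 11.01 (2.44 ± 0.31) and read 10.94, 10.80 and 10.16 at high CO2. LTI30 alone was called between ambient and high CO2. The other 3 were 0.95 to 1.84 above their level at high CO2, with adjusted p of 0.051 for COR47, 0.053 for COR15A and 0.33 for COR15B.

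The next counts of rises since 0 h stand beside 9.92% of all probe sets. Of 3 measured AP2/ERF factors 2 rose. AT1G64380 went from 3.32, 4.75 and 2.94 to 8.35, 8.30 and 7.23 (4.29 ± 0.45), read 3.87, 3.93 and 3.71 at high CO2 and stood 4.12 ± 0.45 above that. AT5G61590 read 8.85, 8.93 and 7.32 at 0 h and 7.46, 7.57 and 8.46 at ambient, with overlapping groups and -0.54 ± 0.44. Of 5 early stress signalling genes 2 rose, the transcription factor gene WRKY6 (2.36 ± 0.50) and the calmodulin-like gene CML37 (1.64 ± 0.50), whose ambient arrays spread from 2.63 to 5.94 and overlapped 0 h. CML37 was not called without ambient replicate 2, 0 h replicate 1 or 0 h replicate 3 (adjusted p up to 0.171). The list's median was 1.48 (0.72 without ambient replicate 2), and 4 of the 5 were higher at ambient than at high CO2 (all probe sets, 5.16%). Of 4 genes of protein folding in the endoplasmic reticulum 2 rose, ATERDJ3B (1.21 ± 0.24) and the calreticulin gene CRT1b (0.77 ± 0.17), with a median of 0.62. Neither was called between ambient and high CO2 (adjusted p = 0.13 and 0.16). BZIP60, not called since 0 h, was higher at ambient than at high CO2 (1.03 ± 0.28).

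All 4 measured genes of auxin response and cell expansion fell (all probe sets, 13.1%), with a median of -2.58. ARL (ARGOS-like), which promotes cell expansion, read 8.13, 7.34 and 8.01 at 0 h and 5.42, 5.23 and 4.41 at ambient (-2.81 ± 0.44, adjusted p = 6.3e-05). The groups did not overlap. HAT2, an auxin-induced homeodomain factor, went from 7.85, 8.57 and 6.70 to 4.77, 5.19 and 5.41 (-2.58 ± 0.50). The expansin gene EXPA8, whose product loosens cell walls, read 8.35, 9.08 and 6.77 at 0 h, 4.74, 4.98 and 6.76 at ambient and 9.08, 8.43 and 9.55 at high CO2. Replicate 3 was at almost the same level in the first 2 groups, and the call was lost without ambient replicate 1 or 2 or 0 h replicate 2 (adjusted p up to 0.0739). The auxin response repressor IAA29 changed by -1.96 ± 0.67 and was called with all arrays or without 0 h replicate 3, not in the other 5 omissions (adjusted p up to 0.224). Against high CO2 EXPA8 (-3.53 ± 0.71), IAA29 (-2.52 ± 0.67) and HAT2 (-2.14 ± 0.50) were lower at ambient, while ARL, at -1.27 ± 0.44, was not called (adjusted p = 0.066) and fell at high CO2 too. Against high CO2 IAA29 was not called without ambient replicate 1 or 2 or high CO2 replicate 1 or 3 (adjusted p up to 0.0772).

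Other lists had few calls or none. None of 3 sugar depletion genes and none of 3 stable reference genes was called, with medians of -0.01 and -0.03, and the reference gene AT4G34270 read 7.55, 7.49 and 7.38 at 0 h and 7.49, 7.51 and 7.38 at ambient. Of 3 starch genes DPE1, the plastid disproportionating enzyme, rose by 2.34 ± 0.39 and at high CO2 by 2.88 ± 0.39. The sulfite reductase gene SIR was at -0.10 ± 0.11. The defensin gene PDF1.2, the single measured member of the jasmonate and salicylate list, read 7.75, 7.93 and 9.35 at 0 h and 7.13, 6.91 and 5.75 at ambient (-1.75 ± 1.25, not called). Root markers were not called in 2 of 2, with EXPA7 between 2.60 and 2.82 and PYK10 between 10.44 and 11.25. Of 3 guard cell genes AT1G22690 fell from 8.69, 9.15 and 8.81 to 6.24, 6.32 and 7.26 (-2.27 ± 0.40), while the guard cell factor gene FMA, at -0.02 ± 0.17, was not called. The part of guard cells in other results was not tested. No gene of the cell cycle, flower, seed, vascular and trichome lists was measured under a single-gene probe set.

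**Figure D3:**
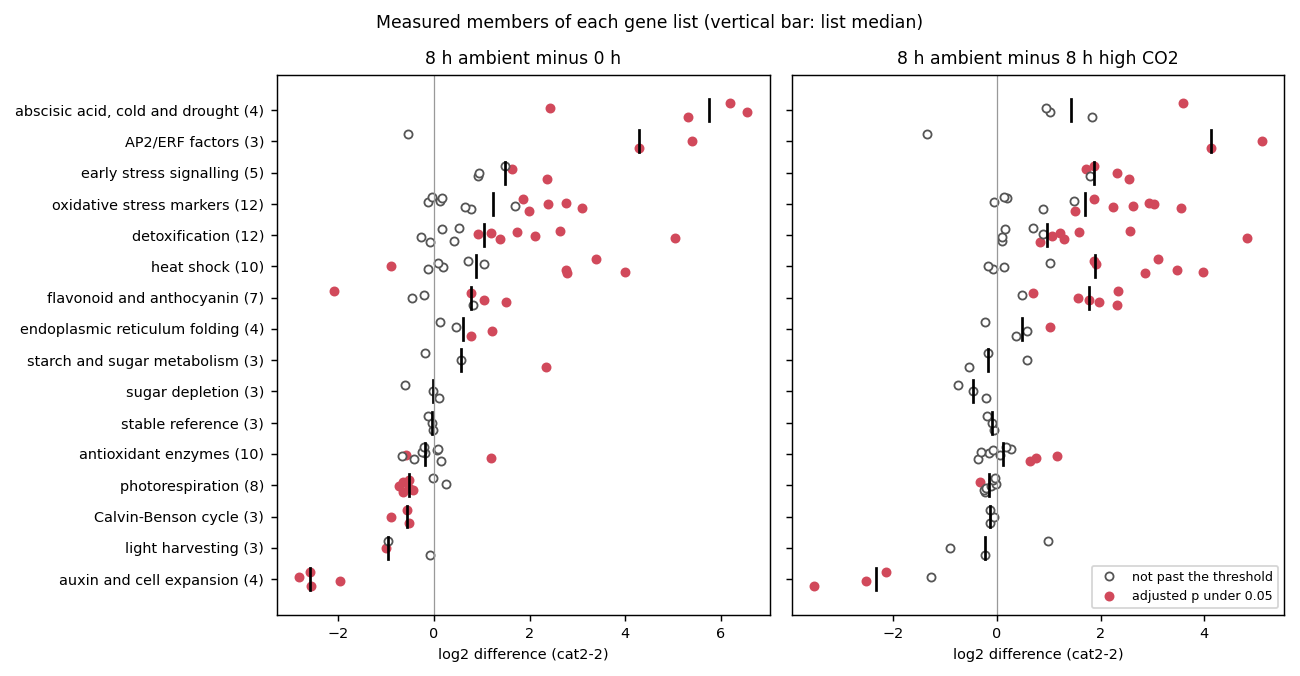
Each point is a measured gene of the list named on the left (number of genes in brackets), placed at its log2 difference in cat2-2 between 8 h ambient and 0 h (left panel) or 8 h high CO2 (right panel). Filled points passed an adjusted p of 0.05 and vertical bars are list medians. Abscisic acid, cold and drought genes lie farthest right in the left panel (median 5.75) and auxin and cell expansion genes farthest left in both.

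Gene families recognised by their symbols widened the view. They were picked after the values had been seen and are described only. Over all probe sets 9.92% rose and 13.1% fell, and a family count near those shares is no result about the family. Of 47 glucosyltransferase (UGT) genes 13 rose and 3 fell, counts that were 9 and 0 without ambient replicate 2 and 10 and 0 without ambient replicate 1 or 0 h replicate 2. UGT84A3, of a group that glucosylates sinapate, went from 4.51, 4.25 and 5.21 to 8.12, 7.77 and 7.35 (3.09 ± 0.35) and read 6.45, 5.93 and 5.57 at high CO2, so that the 3 groups did not overlap. UGT76E12 rose from 2.80, 2.51 and 2.39 to 5.41, 6.58 and 3.74 (2.68 ± 0.48). Of 8 aldehyde dehydrogenase genes 3 rose, led by ALDH7B4 (1.65 ± 0.26), and none fell. Of 24 cytochrome P450 genes 4 rose and 2 fell, with CYP71B22 at -2.17 ± 0.30. The P450 counts ran from 2 to 4 risen and from 1 to 3 fallen with 1 array left out. Of 11 tau-class glutathione transferase genes 2 rose, GSTU25 and GSTU22, and 2 fell, among them GSTU18, from 9.01, 9.04 and 9.00 to 7.73, 7.92 and 8.24 (-1.06 ± 0.21).

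Cell wall families held calls in both directions (all probe sets, 9.92% risen and 13.1% fallen). Of 22 TBL genes, whose products acetylate wall polysaccharides, 5 fell and 1 rose, with 3 fallen without ambient replicate 1 or 2. At high CO2 6 of the 22 fell and none rose (all probe sets there, 5.92% fallen and 6.62% risen). TBL45 read 8.78, 9.25 and 8.84 at 0 h, 8.22, 8.46 and 8.46 at high CO2 and 6.25, 6.27 and 6.76 at ambient (-2.53 ± 0.18 since 0 h, -1.95 ± 0.18 against high CO2). TBL39 rose by 1.74 ± 0.18. Of 9 XTH genes, whose products cut and rejoin xyloglucan, 3 fell and none rose since 0 h, with XTH16 at -1.79 ± 0.27. At high CO2 4 of the 9 fell and none rose (all probe sets there, 5.92% and 6.62%). Of 10 alpha expansin genes 3 rose and 1, EXPA8, fell at ambient. Without ambient replicate 1 these counts were 1 and 0, and 2 rose in each of the other omissions. At high CO2 none of the 10 was called (all probe sets there, 12.5%). EXPA16 went from 3.53, 3.62 and 3.65 to 7.37, 6.30 and 5.70 (2.86 ± 0.47), opposite in sign to EXPA8.

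Among 14 SWEET sugar carrier genes SWEET4, a plasma membrane carrier, rose from 3.66, 3.92 and 3.97 to 7.52, 6.90 and 6.48 (3.11 ± 0.37), and SWEET2 fell. SWEET4 read 5.60, 4.45 and 4.25 at high CO2, below every ambient array (2.20 ± 0.37). Of 14 bZIP factor genes 5 fell and none rose, while 2 rose without ambient replicate 3. BZIP61 went from 7.64, 8.08 and 6.02 to 3.92, 4.09 and 5.38 (-2.79 ± 0.56) with 7.29, 7.32 and 7.58 at high CO2, and BZIP34 changed by -1.81 ± 0.41 since 0 h and stood at -2.06 ± 0.41 against high CO2. Of 10 autophagy genes ATG8D (1.61 ± 0.32) and APG8H (0.66 ± 0.23) rose, the latter called neither without ambient replicate 1 or 2 nor without 0 h replicate 2 or 3 (adjusted p up to 0.231). Of 7 calmodulin-like genes CML37 rose and CML30 (-1.11 ± 0.14) and CML23 (-0.82 ± 0.30) fell, and CML23 was not called in 5 of the 6 omissions of 1 array, all but that of 0 h replicate 3 (adjusted p up to 0.306). Of 20 beta-glucosidase genes 3 rose and 1 fell (all probe sets, 9.92% and 13.1%), with BGLU44 at 2.63 ± 0.23 at ambient and 2.84 ± 0.23 at high CO2.

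The change over 8 h in cat2-2 was also set against the change in WT and in GO5 over the same move, as a difference of changes between separate sets of arrays. Against WT 23 probe sets differed (0.101% of those tested), with 22 more positive in cat2-2 (0.0967%) and 1 more negative (0.00440%). The count ran from 11, without replicate 2 of cat2-2 at ambient, to 72, without replicate 3 of that group, and was 12 without replicate 2 of WT at 0 h and 15 without replicate 2 of cat2-2 at 0 h. The WT ambient arrays were the most spread of all 9 groups, with a median SD of 0.237 over probe sets beside 0.160 in cat2-2 at ambient. Replicate 2 of WT at ambient had a GAPDH 3' minus 5' difference of 2.82, beside 1.78 and 1.76 in the other 2, and with that difference as a covariate the count was 14. Without that array the count was 17, of which 15 were among the 23. The causes of these moves were not tested. For most genes that changed in cat2-2 a difference from WT was thus not shown, and it is not shown that they changed alike.

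Of the genes that did differ, GSTU25 read 2.44, 2.21 and 2.35 in WT at 0 h and 2.52, 2.43 and 2.50 at ambient. The cat2-2 change exceeded that of WT by 4.89 ± 0.69 (adjusted p = 0.00203). For the small heat shock protein gene AT2G29500 the excess was 3.89 ± 0.76 (adjusted p = 0.0459), with WT at 3.31, 3.91 and 5.90 and then 4.99, 4.03 and 4.40. UGT73C1, a glucosyltransferase, rose in cat2-2 from 2.62, 2.65 and 2.58 to 5.21, 5.73 and 5.00 and changed by 0.17 ± 0.35 in WT (excess 2.53 ± 0.49, adjusted p = 0.0459). AT5G16980 exceeded WT by 2.15 ± 0.34 (adjusted p = 0.00587). AT5G58900, a MYB-related factor gene, went down in cat2-2 from 5.78, 5.92 and 5.74 to 5.51, 5.37 and 5.55 and in WT up from 5.49, 5.63 and 5.68 to 5.95, 6.23 and 6.07 (-0.82 ± 0.13, adjusted p = 0.00723). Those groups did not overlap in either genotype. The differences of AT2G29500 and AT5G58900 missed the threshold when only the arrays compared were fitted (adjusted p = 0.753 and 0.289), as did that of AT5G16980 (0.0559). With 1 of the 12 arrays left out, UGT73C1 was called in a single case, without replicate 3 of cat2-2 at ambient (adjusted p otherwise up to 0.201), and AT2G29500 was not called in 7 cases (up to 0.206). GSTU25, AT5G16980 and AT5G58900 were called in all 12. With the GAPDH difference as a covariate AT2G29500, UGT73C1 and AT5G58900 were not called (adjusted p = 0.2205, 0.155 and 0.066), nor were AT2G29500 and UGT73C1 with trend and robust variances (0.071 and 0.0601).

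Against GO5 308 probe sets differed (1.35%), with 59 more positive in cat2-2 (0.259%) and 249 more negative (1.09%). With each array centred on its median 82 were more positive and 186 more negative, a scaling that put the median of all probe sets at 0.11. Same-numbered cat2-2 and GO5 arrays deviated together within both harvests, and with the replicate number as a block within each harvest, added after seeing the data, 796 differed. The count was 764 without replicate 1 and 136 without replicate 2 of GO5 at ambient.

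The 4 genes more negative in cat2-2 by the largest amounts were not called as changed in the mutant itself. AT2G04050, of the MATE efflux transporter family, read 3.04, 2.73 and 2.93 at 0 h and 2.95, 3.12 and 3.14 at ambient in cat2-2, while GO5 went from 2.93, 2.92 and 2.93 to 9.21, 10.35 and 9.90. The difference of changes was -6.72 ± 0.82 (adjusted p = 8.66e-05). AT2G04070 of the same family, AT2G18190 of the AAA ATPase family and AT2G32020 of the GNAT acetyltransferase family differed by -4.76 ± 0.49, -4.39 ± 0.59 and -4.24 ± 0.45. In cat2-2 AT2G04070 had means of 4.38 at 0 h and 4.90 at ambient, and the means of the other 3 lay between 2.90 and 3.20, near background. Of the oxidative stress markers 7 of 12 and of the detoxification list 3 of 12 were more negative in cat2-2 than in GO5 (all probe sets, 1.09%).

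Of the 10 heat shock genes 2 were more positive in cat2-2 than in GO5 and none more negative (all probe sets, 0.259% and 1.09%). AT2G29500 changed by 0.18 ± 0.54 in GO5 (difference 3.80 ± 0.76, adjusted p = 0.0114), and AT1G53540, at 2.60 to 2.89 on all 6 GO5 arrays, differed by 2.92 ± 0.60 (adjusted p = 0.0142). The small heat shock protein genes AT5G51440 (-0.69), ATHSP22.0 (-0.06) and AT5G37670 (0.51) were not called. AT5G16980 differed by 1.94 ± 0.34 (adjusted p = 0.00321) and AT4G29520 by 1.46 ± 0.37 (adjusted p = 0.0473), the latter with a change of 1.02 ± 0.26 in WT. With only the arrays compared fitted, none of these 4 was called (adjusted p from 0.0619 to 0.188), and AT4G29520 was not called in 8 of 12 omissions of 1 array (up to 0.172). GSTU25 and UGT73C1 rose in GO5 as well, by 3.27 ± 0.49 and 3.70 ± 0.35, and their differences to cat2-2 were not called (adjusted p = 0.259 and 0.426). ARL, which fell in cat2-2 and changed by -2.48 ± 0.44 in WT, changed by 0.15 ± 0.44 in GO5, a difference of -2.96 ± 0.62 (adjusted p = 0.0164).

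**Figure D4:**
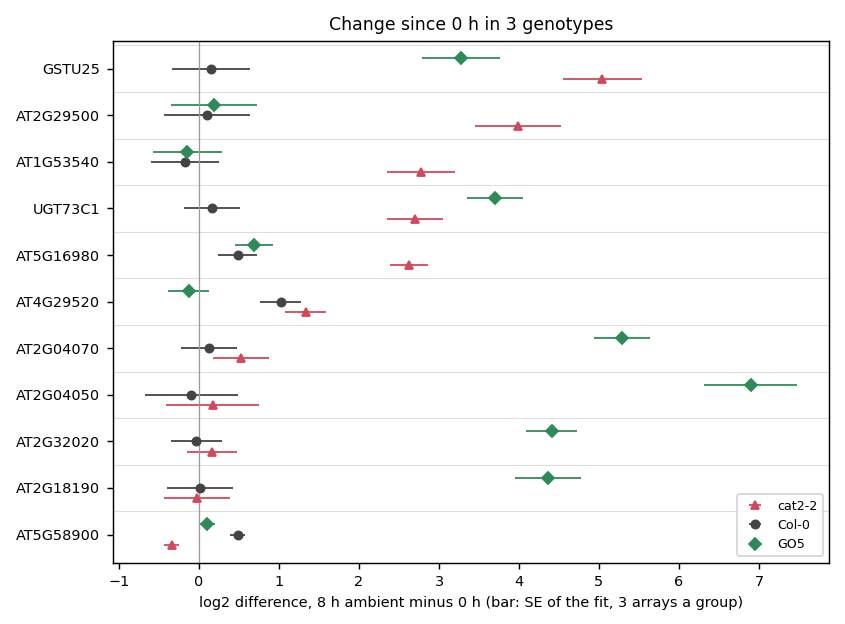
For the genes named by the largest differences of change, the log2 difference between 8 h ambient and 0 h is plotted with its standard error from the limma fit (3 arrays a group) in cat2-2 (triangles), Col-0 (circles) and GO5 (diamonds). AT2G29500, AT1G53540 and AT5G16980 lie farther right in cat2-2 than in the other genotypes. The difference of AT1G53540 between cat2-2 and Col-0 was not called (limma adjusted p = 0.066). GSTU25 and UGT73C1 lie to the right in cat2-2 and GO5, and AT2G04050, AT2G04070, AT2G18190 and AT2G32020 in GO5 alone.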

How the data were processed

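Per the submitters' processing notes RMA, GCRMA and affy in R 2.15.0 were used, and which of RMA and GCRMA made the deposited log2 signals (22810 probe sets on each array) was not settled. Of all values 21.9% lie below 3, near the floor of the array, where weakly expressed genes are poorly measured. Precision is limited by 3 arrays a group.

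After 64 control probe sets were dropped, 22746 were fitted with limma 3.58.1 under R 4.3.3, a model with a mean for each of the 9 groups over the 27 arrays, empirical Bayes variances, two-sided tests and Benjamini-Hochberg adjustment within each contrast. In the platform annotation 13513 probe sets had 1 gene, 503 had several and 8730 had no gene. Of the first 13436 were matched to the RefSeq table of TAIR10.1. A gene with several probe sets is represented by the one with the highest mean over all arrays. Of 28 lists with 486 loci, 103 loci were measured. The members, lists, thresholds and rules were chosen with earlier results of these data known.

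The naming rule took the 12 largest rises and falls among called probe sets with 1 gene and no overlap of arrays, the 4 largest of each sign in each other contrast, up to 6 called members of each list, every member of lists with at most 10 measured, and the 2 largest rises and falls without a gene. Family members, and ARL in the comparison with GO5, were picked after their values were seen. The fit was tested on simulated data. Alternatives were quantile normalization, median centring, trend and robust variances, removal of dim probe sets (below percentile 40), fits of only the arrays compared, replicate number as a block, the GAPDH 3'/5' difference as a covariate and omission of each array. The block within a harvest and the omission of replicate 3 were added after seeing the data. Same-numbered cat2-2 and GO5 arrays deviated from their group means with correlations over probe sets of 0.295, 0.403 and 0.559 at ambient and 0.691, 0.600 and 0.778 at 0 h.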

Additional observations from a re-analysis of the deposited data

Results flagged for a closer look

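The change of cat2-2 over the 8 h at ambient CO2 differed from that of WT in 23 probe sets by limma's test of the difference of changes. In the genes named there cat2-2 minus WT was 4.89 for GSTU25, 3.89 for AT2G29500, 2.53 for UGT73C1, 2.15 for AT5G16980 and -0.82 for AT5G58900, on the log2 scale. The same test against GO5 called 308 probe sets. There cat2-2 minus GO5 was 3.80 for AT2G29500, 2.92 for AT1G53540, 1.94 for AT5G16980 and 1.46 for AT4G29520. It was -6.72 for AT2G04050, -4.76 for AT2G04070, -4.39 for AT2G18190 and -4.24 for AT2G32020, genes whose signal in cat2-2 was not called as changed.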

How the results depend on the processing

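The count of changed probe sets between 8 h ambient and 0 h stayed within 1.5 times of 5225 under all alternatives run. It was 5254 with quantile normalization, 5140 with median centring, 4260 with only the 6 arrays and 5678 with the replicate number as a block, whose pairs of these groups did not all deviate together (r = 0.112, -0.240 and 0.093). With 1 array left out it ran from 3617 to 5701. Without replicate 3 of both groups the heat shock list had 5 genes higher and 1 lower, and in none of the gene lists (families apart) did the counts in either direction move by more than 1. Of 113 called named probe sets 90 were called whichever of the 6 arrays was left out, and of the 24 largest changes 22. Ambient minus high CO2 ran from 1231 to 3478 with 1 array left out (1311 and 1231 without ambient replicates 1 and 2, 1538 and 1533 without high CO2 replicates 1 and 3) and was 3131 with the replicate block. High CO2 minus 0 h ran from 2008 to 2381 and was 1896 without replicate 3 of both groups. Against WT the count was 11 without dim probe sets, 7 with only the arrays compared, 14 with the GAPDH covariate, 27 with the replicate block, 41 with the replicate block within each harvest, and 11 to 72 with 1 array left out (11 and 72 without cat2-2 ambient replicates 2 and 3, 15 without cat2-2 0 h replicate 2 and 12 without WT 0 h replicate 2). Against GO5 it was 66 with only the arrays compared, 458 with the replicate block, 796 with the replicate block within each harvest, and 136 to 764 with 1 array left out (192 without cat2-2 ambient replicate 1, 196 and 180 without cat2-2 0 h replicates 1 and 2, 764 and 136 without GO5 ambient replicates 1 and 2, 176 and 162 without GO5 0 h replicates 1 and 2). Fewer arrays or probe sets in a fit change its power, and other causes of these moves were not tested. No called named difference changed sign. Of named differences that were not called, some changed sign, among them RVE6 (AT5G52660), from -0.02 to 0.10 without 0 h replicate 3.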
